A study of Mus musculus with 6 samples.

Results

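Ligands and receptors of the TGF-β and BMP pathways and the Id genes were described in green fluorescent cells sorted magnetically from the hippocampus of mice. The 10 genes are Tgfb1, Tgfb2, Tgfbr1, Tgfbr2, Bmpr1a, Bmpr2, Id1, Id2, Id3 and Id4, and all 10 had a row among the 20323 genes with values. They were chosen by symbol for their place in the pathway, with differences between the treatment groups in these libraries already known, so their differences are given as a description with no test. Every animal carried Nestin-CreERT2 and a Rosa26 membrane GFP reporter, in which tamoxifen-activated Cre under Nestin control marks neural progenitor cells and the cells derived from them. Every animal was also fed cuprizone, a copper chelator that causes loss of myelin, for 10 weeks and then recovered for 4 weeks. During recovery 3 mice, the vehicle group, were given saline with 0.1% bovine serum albumin, and 3 were given neuregulin 1 beta 1 peptide (Nrg-1β1), a ligand of the ErbB receptors, at a dose of 60 per kg per day, which is in µg in the series description and in g in the sample labels. Each library was taken as the hippocampus of 1 mouse, so the spread is read as that between animals. A limit on this for vehicle library 3 is given below. The labels give neither age nor sex.

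TGF-β and BMP ligands bind a pair of type II and a pair of type I receptor kinases, and the type I receptor then phosphorylates Smad proteins that enter the nucleus. Tgfbr2 and Tgfbr1 carry the TGF-β signal, while Bmpr2 and Bmpr1a carry BMP signals. The Id genes are classical BMP targets: their products hold a helix-loop-helix domain without a DNA-binding part and occupy E proteins, which keeps proneural basic helix-loop-helix factors from acting. In the adult hippocampus BMP signalling is known to hold neural stem cells in quiescence, and in brain the TGF-β receptors are prominent in microglia and in vessels.

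A window from 250 bases before to 50 after the annotated start was at hand for 9 of the 10 genes, all but Id1, in 10 windows, since Tgfbr1 had 2 annotated starts, from RefSeq on GRCm38.p6. The upstream window of Tgfbr1 and that of Tgfbr2 are shown because both receptors were lower with Nrg-1β1, and that of Id2 because it was the member that was higher in every treated library. Capitals mark GGCGCC, a GC-rich motif that Smad proteins of the BMP branch can bind and that reads the same on both strands.
Tgfbr1, chr4:47352972-47353271, plus strand: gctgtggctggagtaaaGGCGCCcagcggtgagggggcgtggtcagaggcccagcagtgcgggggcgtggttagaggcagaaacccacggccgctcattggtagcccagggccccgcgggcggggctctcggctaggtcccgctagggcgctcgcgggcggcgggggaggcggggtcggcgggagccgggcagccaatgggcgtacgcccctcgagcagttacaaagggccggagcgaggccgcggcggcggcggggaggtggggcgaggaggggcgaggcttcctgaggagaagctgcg
Tgfbr2, chr9:116175314-116175613, minus strand: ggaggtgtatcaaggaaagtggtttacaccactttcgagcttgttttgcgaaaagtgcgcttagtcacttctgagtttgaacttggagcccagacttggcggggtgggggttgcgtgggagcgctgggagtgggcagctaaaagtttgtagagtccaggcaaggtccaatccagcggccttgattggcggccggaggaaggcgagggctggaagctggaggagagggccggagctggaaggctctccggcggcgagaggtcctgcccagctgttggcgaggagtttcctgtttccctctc
Id2, chr12:25096043-25096342, minus strand: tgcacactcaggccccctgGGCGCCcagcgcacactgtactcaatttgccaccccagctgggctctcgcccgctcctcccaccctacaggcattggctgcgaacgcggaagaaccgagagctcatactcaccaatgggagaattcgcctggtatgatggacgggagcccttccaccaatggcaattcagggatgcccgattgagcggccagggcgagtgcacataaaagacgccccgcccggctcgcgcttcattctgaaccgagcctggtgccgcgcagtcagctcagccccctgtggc

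The motif began 233 bases before the upstream start of Tgfbr1 and 231 bases before that of Id2, and it was neither in the Tgfbr2 window nor in the second Tgfbr1 window, chr4:47385966-47386265. It also lay in the windows of Bmpr1a, Bmpr2 and Id4, so 5 of the 10 windows held it, against 11.9% of all 32851 windows of that length. The 10 windows had a GC content of 52.0% to 79.3%, where the median of all windows was 52.7%. GTCTAGAC, the palindrome of the Smad binding element, and TGACGTCA, the cAMP response element, were in 0 of the 10 windows, and 0.213% and 1.79% of all windows held them. Members that were lower and members that were higher both had the GC-rich motif, so its presence did not separate them.

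The libraries differed in depth, partly with the group. From 47076006 to 72953034 reads stood behind vehicle libraries 1 and 3, against 1075813 behind vehicle library 2 and 567073 to 1327003 behind the Nrg-1β1 libraries. Values are on the deposited scale, log2 of a normalized count plus 4. Nes, the gene whose promoter drives Cre, was at 6.58, 6.23 and 7.89 in vehicle and at 5.13, 5.64 and 4.97 in Nrg-1β1, a difference of -1.65 (adjusted p = 0.0582, limma). Xist, expressed from the inactive X chromosome, was at 6.07 to 9.39 in vehicle and at 2.82 to 4.27 in Nrg-1β1, while Ddx3y on the Y chromosome was at 3.16, 2.83 and 6.96 in vehicle and at 5.63 to 7.26 in Nrg-1β1. Vehicle library 3 was within the treated range for Ddx3y and above it for Xist, and the group and the sex of the animals cannot be told apart here. With 1045 reads of Xist and 1994 of Ddx3y, that library held transcripts of both an inactive X and a Y chromosome. An origin of vehicle library 3 in 1 animal alone is therefore not assured, and the source of the mix was not tested.

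Among the 10 genes, 8 had a negative and 2 a positive difference of Nrg-1β1 minus vehicle. The median difference was -0.42 on the log2 scale, beside 0.03 over all genes. Past the all-gene threshold (adjusted p of 0.05, limma) 3 were lower, Tgfbr1, Tgfbr2 and Id1, and 0 were higher, where 0.625% of all genes were lower and 0.438% higher by the same rule. The groups did not overlap for 4 members that were lower and 1 that was higher, where 10.4% of all genes were lower and 7.37% higher in that sense. Since the members were picked with this contrast known, nothing is read from these counts. All 10 averaged 50 normalized counts or more, and 7 had at least 10 reads in every library. In bulk RNA, fewer cells of a type and less RNA per cell cannot be told apart.

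**Figure D1:**
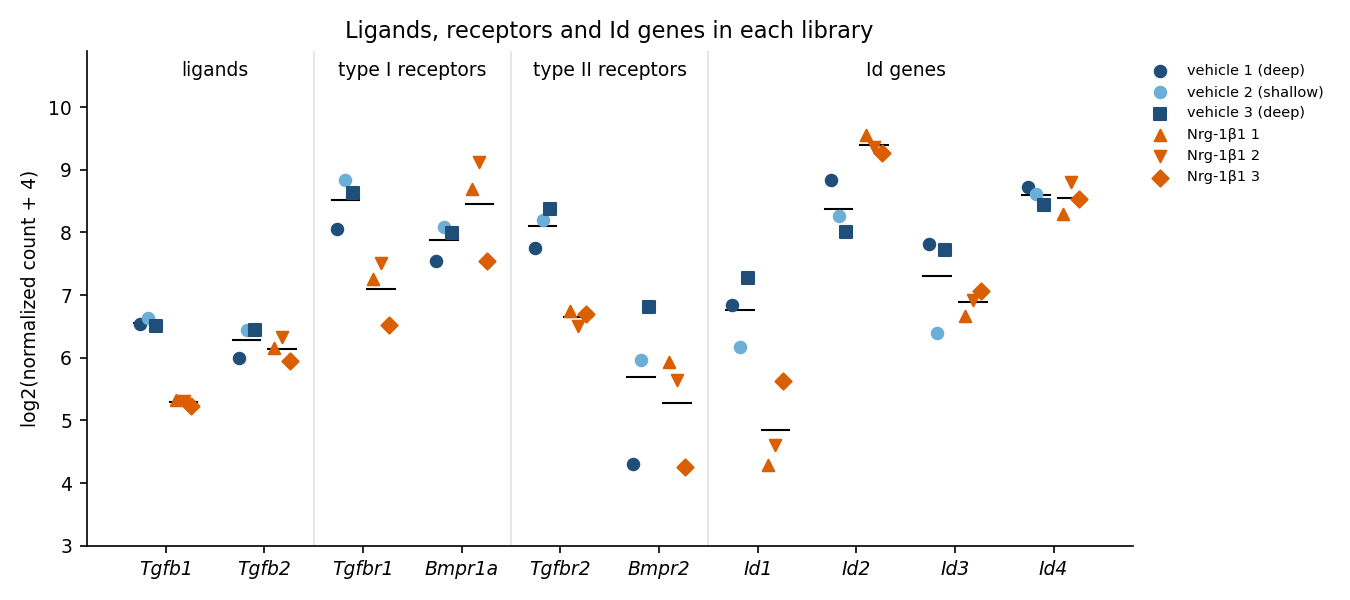
Log2(normalized count + 4) of the 10 genes (y axis) in each of the 6 libraries, grouped by role along the x axis, with horizontal lines at group means. Tgfb1, Tgfbr1, Tgfbr2 and Id1 lie lower in all Nrg-1β1 libraries than in any vehicle library, Id2 lies higher, and the other 5 overlap.

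Tgfb1, the TGF-β ligand made largely by microglia in the adult brain, had the tightest groups. Its log2 values were 6.54, 6.64 and 6.51 with vehicle and 5.33, 5.31 and 5.23 with Nrg-1β1. All treated values were lower, and the groups varied little (SD 0.07 and 0.06, n = 3 each), with a difference of -1.27 ± 0.34 (SE). The small spread rests on few reads, since the treated libraries held 7, 7 and 11, and the counting interval of the first alone ran from 14.5 to 74.5 normalized counts around 36.2. Tgfb2, a second TGF-β ligand that astrocytes and neurons also make, was at 5.99, 6.45 and 6.44 in vehicle and at 6.15, 6.33 and 5.95 in Nrg-1β1. These ranges overlapped almost fully (difference -0.15 ± 0.34, SE). Genes of other transcripts lie opposite to Tgfb2 in the annotation, so without a strand setting a part of its reads could be theirs.

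The type I receptor of TGF-β, Tgfbr1, was at 8.06, 8.83 and 8.63 with vehicle and at 7.26, 7.51 and 6.53 with Nrg-1β1. The lowest vehicle value lay above the highest treated value, and the group means were 8.51 ± 0.40 and 7.10 ± 0.51 (SD, n = 3 each), a difference of -1.40 ± 0.32 (SE). Bmpr1a, the BMP type I receptor, did not follow it. Its values were 7.55, 8.09 and 7.99 in vehicle and 8.69, 9.13 and 7.54 in Nrg-1β1 (difference 0.58 ± 0.35, SE). Thus 2 treated libraries lay above every vehicle library. The third was level with the lowest vehicle library, at 182 against 183 normalized counts. Without Nrg-1β1 library 3 the Bmpr1a difference was 1.03, and without Nrg-1β1 library 2 it was 0.24.

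Tgfbr2, the type II receptor that binds TGF-β first, was at 7.75, 8.20 and 8.38 in vehicle and at 6.75, 6.51 and 6.70 in Nrg-1β1. The treated libraries lay close together and all under the vehicle libraries, with means of 8.11 ± 0.33 and 6.65 ± 0.13 (SD, n = 3 each) and a difference of -1.46 ± 0.29 (SE). Bmpr2, the BMP type II receptor, varied most of all members within vehicle, at 4.30, 5.97 and 6.81, which is 260, 19 and 1790 reads. In Nrg-1β1 it was at 5.93, 5.64 and 4.26 (11, 9 and 5 reads), inside the vehicle range except for the last value. The difference of -0.42 ± 0.56 (SE) turned to 0.14 without vehicle library 3 and to 0.09 without Nrg-1β1 library 3, and was -1.11 without vehicle library 1.

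Id1 had the largest negative difference of the 10 members. Its values were 6.84, 6.17 and 7.27 with vehicle and 4.29, 4.61 and 5.63 with Nrg-1β1. No treated library reached a vehicle library, and the difference was -1.92 ± 0.43 (SE). The treated values came from 3, 4 and 15 reads, and the upper counting limit of the third (75.2 normalized counts around 45.6) exceeded the 67.9 of vehicle library 2. Within vehicle, Id1 was highest in library 3 and lowest in library 2.

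Id2, which oligodendrocyte progenitors and neurons also express, went the other way. It was at 8.83, 8.27 and 8.00 in vehicle and at 9.56, 9.36 and 9.26 in Nrg-1β1, with 128 to 200 reads per treated library. Each treated value was above every vehicle value, and the treated libraries were closer together (SD 0.15 against 0.43, n = 3 each), with a difference of 1.02 ± 0.29 (SE). Id3, often expressed together with Id1 in vessels and astrocytes, was at 7.81, 6.40 and 7.72 in vehicle and at 6.67, 6.92 and 7.07 in Nrg-1β1. The shallow vehicle library 2 lay under all treated libraries and the deep ones above them, so the difference of -0.42 ± 0.36 (SE) was 0.49 when only the shallow libraries were compared. Id4, a gene of astrocytes and quiescent neural stem cells, was level, at 8.73, 8.61 and 8.43 in vehicle and 8.29, 8.81 and 8.54 in Nrg-1β1 (difference -0.04 ± 0.27, SE). Other annotated genes lie opposite to Id4 and Bmpr1a, with the same doubt on strand as for Tgfb2, and 1 shares a strand with Bmpr2.

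Relatives were then compared within each library as the log2 ratio of their normalized counts per kilobase of annotated exon, without the offset of 4. Id2 over Id1 was 0.96, 1.10 and -0.33 with vehicle and 4.52, 3.93 and 2.67 with Nrg-1β1, which do not overlap. Id4 over Id1 was -0.55 to 0.78 in vehicle and 1.28 to 2.71 in Nrg-1β1. Id3 over Id1 was -0.39 to 0.37 in vehicle, so both genes were near the same level, and 0.89 to 2.04 in Nrg-1β1. Relative to each of these relatives, Id1 was thus lower in every treated library than in any vehicle library. With Id1 lower and Id2 higher without overlap, the ratio of Id2 over Id1 had to separate. These ratios and those below reuse the members' values, for Id1 from 3, 4 and 15 treated reads, and are no further support.

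The receptors and ligands showed the same kind of shift. On the same scale Bmpr1a over Tgfbr1 was -0.48, -0.71 and -0.60 in vehicle and 1.49, 1.68 and 1.09 in Nrg-1β1. Tgfb2 over Tgfb1 was -0.78 to -0.28 in vehicle and 0.59 to 0.90 in Nrg-1β1. By contrast Tgfbr1 over Tgfbr2 overlapped between groups, at 0.58 to 0.96 in vehicle and 0.14 to 1.37 in Nrg-1β1, as did Bmpr2 over Tgfbr2.

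**Figure D2:**
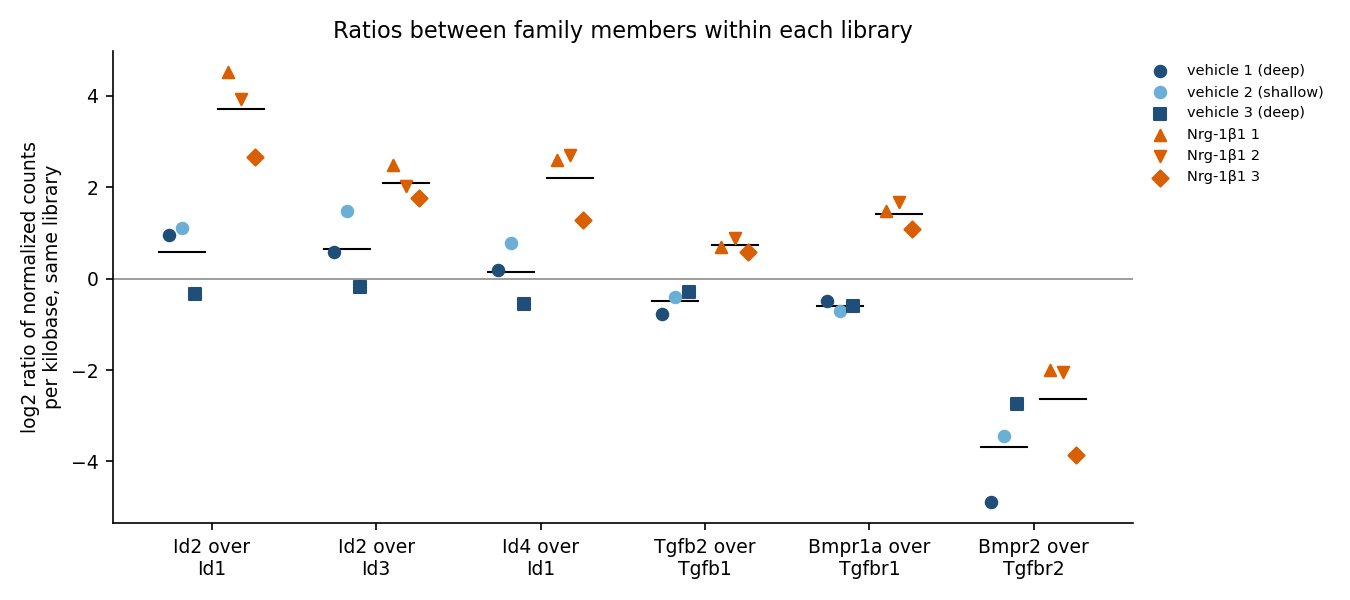
Log2 ratio of the normalized counts per kilobase of 2 relatives in the same library (y axis) for 6 pairs (x axis), with horizontal lines at group means. Vehicle and Nrg-1β1 libraries separate for each pair except Bmpr2 over Tgfbr2, and the ratios of Bmpr1a over Tgfbr1 and Tgfb2 over Tgfb1 change sign between groups.

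In vehicle the mean normalized count per kilobase was highest for Id2 (138), followed by Id4 (99.5), Id3 (94.5), Id1 (94.4), Tgfbr1 (56.4), Bmpr1a (36.9), Tgfbr2 (33.8), Tgfb1 (18), Tgfb2 (13) and Bmpr2 (3.39). Each pair of neighbours from Id2 to Tgfbr2 had overlapping ranges over the 3 vehicle libraries, while Tgfbr2, Tgfb1, Tgfb2 and Bmpr2 were apart from each other in every library. In Nrg-1β1 the order began Id2 (275), Id4 (97.2), Id3 (64.4), Bmpr1a (60.2) and Id1 (23.4), and the ranges of Id2, Id4 and Id3 were apart while those of Id3, Bmpr1a, Id1 and Tgfbr1 each overlapped the next. Tgfbr1 (21.3), Tgfbr2 (11.8), Tgfb2 (11.6), Tgfb1 (6.96) and Bmpr2 (2.19) followed, and of these neighbours only Tgfbr2 and Tgfb2 overlapped.

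The genes whose log2 values ran most like those of a member over the 6 libraries were taken from the 6731 genes that averaged 50 normalized counts or more. For Tgfbr2 they were Hspa1a (Pearson r = 0.988), Kl (r = 0.983) and Enpp2 (r = 0.982), and for Tgfbr1 Vps54 (r = 0.989), Cd2ap (r = 0.984) and Tmod3 (r = 0.981). For Tgfb1 they were Entpd1 (r = 0.994), Golm1 (r = 0.985) and Nemf (r = 0.984). For Id1 they were Slc9a3r2 (r = 0.993), Ptn (r = 0.988) and Efemp1 (r = 0.986), and for Id2 Slc25a33 (r = 0.995), Dhrs1 (r = 0.987) and Cyp46a1 (r = 0.982). These values are descriptions over 6 libraries that share the group difference and the depth difference.

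Of 118 other pathway genes listed by role, 115 had values, and 5 fell and 0 rose at an adjusted p of 0.05 over all genes (limma). By the same rule 0.625% of all genes were lower and 0.438% higher. The median difference of the 115 genes was -0.16, beside 0.03 over all genes. It was -0.13 with the genes without reads in a group placed at their bound of 3 reads. At an unadjusted p of 0.05 limma gave 19 lower and 7 higher, where 6.86% of all genes were lower and 6.15% higher. Limma-voom on the recovered reads had 26 under an unadjusted p of 0.05, beside 5112 over all genes. At an adjusted p of 0.05 limma-voom called 0 of the other pathway genes. The 5 that fell were the endothelial co-receptor gene Eng, the type I receptor gene Acvrl1, the latent TGF-β binding protein gene Ltbp4, the matrix gene Fn1 and the AP-1 gene Junb. The count of 5 was 2 without vehicle library 1 and 0 when any other library was left out.

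Eng, which encodes endoglin, was at 6.83, 5.82 and 8.07 in vehicle and at 3.20, 4.27 and 3.71 in Nrg-1β1, where 7 reads were found in all (difference -3.18 ± 0.52, SE, adjusted p = 0.00477, limma). Acvrl1, which encodes ALK1, the endothelial type I receptor that works with endoglin, was at 6.03, 5.74 and 7.62 in vehicle and at 2.00, 4.27 and 4.26 in Nrg-1β1, where the first library had 0 reads (difference -2.95, adjusted p = 0.0252, limma). Both were highest in vehicle library 3 and lowest of the vehicle libraries in library 2. None of the other 11 measured receptors passed. Rgma, a BMP co-receptor gene, was higher by 1.29 ± 0.33 (SE) with groups that did not overlap and missed the threshold (adjusted p = 0.0598, limma), and Neo1 differed by 0.13.

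Among genes that keep TGF-β latent or activate it, 1 of 12 passed, where 0.625% of all genes were lower and 0.438% higher by that rule. Ltbp4 fell by 2.74 ± 0.44 (SE, adjusted p = 0.00477, limma), again with the highest value, 9.05, in vehicle library 3. The integrin genes Itgb5 and Itgav differed by -0.64 and -0.33 without passing. In the list of TGF-β target genes 2 of 14 fell, beside the same shares over all genes. At an unadjusted p of 0.05 (limma) 8 were lower and 1 higher, where 6.86% of all genes were lower and 6.15% higher. Of the 14 target genes 12 had negative differences, with a median of -1.23, or -1.26 with Timp1, which had 0 reads in Nrg-1β1, at its bound. Fn1, which encodes fibronectin, fell by 2.30 ± 0.51 (SE, adjusted p = 0.0348, limma), and Junb, also an immediate early gene, fell by 1.79 ± 0.31 (SE, adjusted p = 0.00888, limma). Ski and Sgk1 differed by 0.14 and -0.56 without passing.

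The remaining roles held 0 genes past the threshold. Measured were 20 genes of the ligand list, 11 Smad transducers and partners, 14 intracellular and 12 extracellular inhibitors, 11 BMP targets and 12 basic helix-loop-helix genes. At an adjusted p of 0.05 limma-voom on the recovered reads also called 0 of these genes. At an unadjusted p of 0.05 limma gave 2 lower and 2 higher ligands, 1 higher Smad partner and 0 intracellular inhibitors. The same cut gave 3 lower and 1 higher extracellular inhibitors, 1 lower BMP target and 1 higher basic helix-loop-helix gene. These counts stand beside the shares of 6.86% and 6.15% over all genes. Their median differences, in the order of the roles above, were 0.20, 0.09, -0.23, -0.19, -0.04 and 0.21. Of the most abundant members, the ligand gene Tgfb3 differed by -0.64, and Bmp1, in the ligand list though it encodes a protease, by -0.31. The BMP transducer gene Smad5 and the TGF-β signalling partner gene Xiap differed by 0.33 and -0.08. The intracellular inhibitor gene Fkbp1a differed by -0.17, and the extracellular ones Nbl1 and Fstl1 by -0.14 and 0.30. Among BMP targets Hey1 and Smad7 differed by 0.49 and -0.04, and Olig1 and the E protein gene Tcf4 by 1.11 and 0.22.

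**Figure D3:**
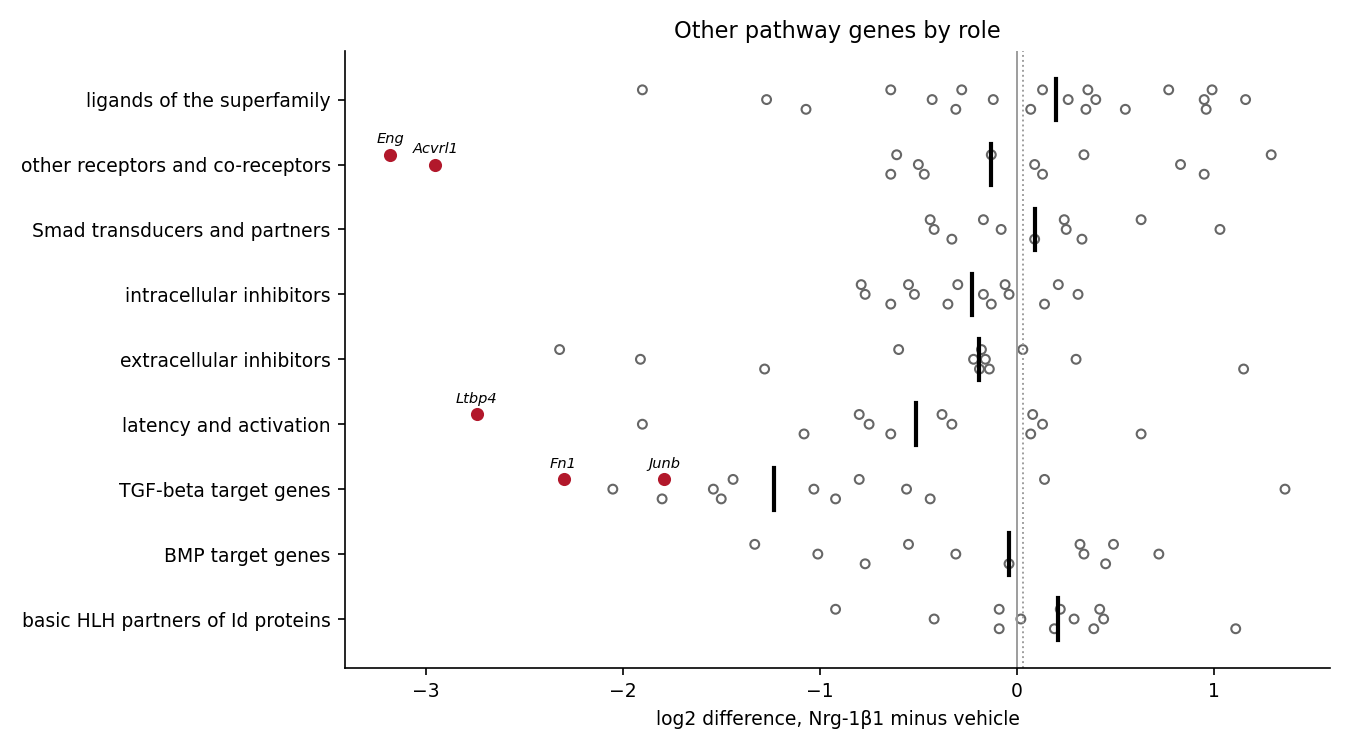
Log2 difference, Nrg-1β1 minus vehicle (x axis), of 115 other pathway genes by role (y axis). Filled points are the 5 genes past an adjusted p of 0.05, all lower, black bars are list medians from -1.23 to 0.21, and the dotted line is the median of all genes, 0.03.

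Markers of several cell types moved with the groups. The counts of called markers given here stand beside 0.625% of all genes lower and 0.438% higher at the same adjusted p of 0.05 (limma). Of 18 endothelial markers 10 fell, and the summed normalized count was 1695, 843 and 4340 with vehicle and 181, 209 and 246 with Nrg-1β1. The rank order of Id1 was the same as that of this sum in all 6 libraries, and Cldn5, the tight junction gene of brain endothelium, had 22 reads in the Nrg-1β1 libraries. Of 21 microglial markers 11 fell, and their sum was 17672, 12935 and 10361 in vehicle and 5016, 6206 and 6062 in Nrg-1β1. The median difference of this list was -1.44, with 20 of 21 negative, beside -1.27 for Tgfb1, -1.40 for Tgfbr1 and -1.46 for Tgfbr2. Medians near these were not particular to microglial markers, with -1.50 for the mural cell and -1.30 for the ependymal list. Further medians were -2.50 for the endothelial, -2.30 for the choroid plexus, -0.92 for the fibroblast and -0.83 for the border macrophage list. The part of these markers in the differences of the receptors, Tgfb1 and Id1 was not tested.

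Choroid plexus markers (6 of 12 fell, summed 3183 to 7716 in vehicle and 608 to 732 in Nrg-1β1) and immediate early genes (12 of 15 fell, 4300 to 5928 and 806 to 1558) shifted the same way, as did erythroid genes (4 of 5 fell, 3294 to 9488 and 438 to 1999). In the mural cell list 1 of 13 fell (318 to 681 and 179 to 238), and in the border macrophage list 0 of 8 (161 to 333 and 57.7 to 128). Kcnj8 and Des of the mural, Ms4a7 of the macrophage and Kcne2 of the choroid plexus list had 0 reads in the Nrg-1β1 libraries. In the shallow vehicle library 2 these genes had 0, 2, 1 and 7 reads, so all but Kcne2 were near the detection limit at such depth. In the fibroblast list 0 of 9 passed (281 to 662 and 128 to 317), in the ependymal list 0 of 10 (157 to 1038 and 169 to 201) and in the oligodendrocyte list 0 of 14 (97284 to 194381 and 109852 to 142673). Most of the oligodendrocyte sum was Mbp, at 58663 to 165845 in vehicle and 90198 to 109694 in Nrg-1β1. Of the 14 oligodendrocyte markers 13 had negative differences, with a median of -0.77, beside 0.03 over all genes.

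Astrocyte markers had a summed level of 37434 to 53174 in vehicle and 64501 to 69298 in Nrg-1β1, and 0 of 15 passed, though all 15 had positive differences. In the stem and progenitor list, summed at 2329 to 2511 and 3177 to 3406, 1 of 16 rose, Sox1. Its differences were mixed, 6 negative and 10 positive with a median of 0.09. At an unadjusted p of 0.05 (limma) 3 of its genes were lower and 2 higher. In the oligodendrocyte progenitor list, summed at 6319 to 16200 and 8668 to 9453, 1 of 10 rose, C1ql1. Here 5 differences were negative and 5 positive, with 1 gene lower and 3 higher at the unadjusted cut. Most of the oligodendrocyte progenitor sum was Bcas1, at 4226 to 14652 in vehicle and 5941 to 7456 in Nrg-1β1. The neuron list had 0 of 14 past the threshold (15034 to 25928 and 18958 to 28823). Most of the neuron sum was Camk2a, at 9808 to 17473 in vehicle and 9572 to 18981 in Nrg-1β1. Of the 14 neuron markers 13 had positive differences, with a median of 0.17. In the lists with 0 called genes, an unadjusted p under 0.05 (limma) was found for 6 higher astrocyte and 4 higher neuron markers, for 4 lower border macrophage, 4 lower ependymal and 6 lower oligodendrocyte markers, and for 3 lower and 1 higher fibroblast marker. Over all genes 6.86% were lower and 6.15% higher at that cut. The part of all these lists in the members' differences was not tested.

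**Figure D4:**
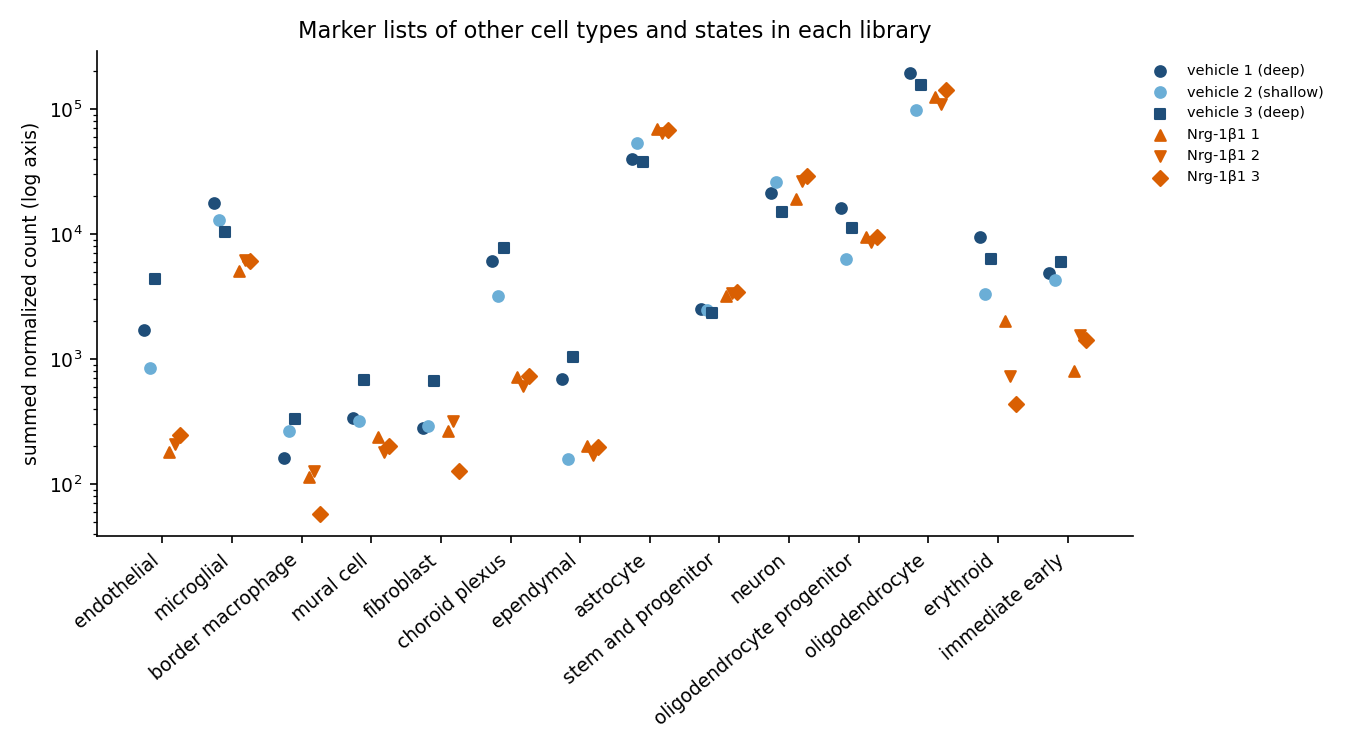
Summed normalized count (log axis) of each marker list (x axis) in each library. Endothelial sums are 843 to 4340 in vehicle and 181 to 246 in Nrg-1β1 libraries, microglial sums are also separated, and ependymal, neuron, fibroblast and both oligodendrocyte lists overlap. The oligodendrocyte sum is mostly Mbp, the oligodendrocyte progenitor sum mostly Bcas1 and the neuron sum mostly Camk2a.

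The members differed in how far their differences depended on single libraries and on scaling. Over 17 alternatives Tgfb1 ranged from -1.35 to -1.06, Tgfbr2 from -1.73 to -1.24, Tgfbr1 from -1.73 to -1.12, Id1 from -2.43 to -1.33 and Id2 from 0.83 to 1.40, all on 1 side of zero. The groups did not overlap for these genes, so leaving out a library could not change their sign. Bmpr2 ranged from -1.53 to 0.14, Id3 from -0.87 to 0.49, Tgfb2 from -0.30 to 0.07 and Id4 from -0.23 to 0.17, on both sides. With libraries centred on their medians, which put the median of all genes at 0.25, Id4 was at 0.17 and Tgfb2 at 0.07, both under that median. Tgfbr2 stayed past the threshold in 7 of the 17 alternatives, Id1 in 3 and Tgfbr1 in 2, and Id2 passed in 1. The members were picked with this contrast known and the alternatives reuse the same libraries, so these counts are a description and no test. When any library other than vehicle library 1 was left out, 0 members passed, and without vehicle library 1 it was Tgfbr2 alone.

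**Figure D5:**
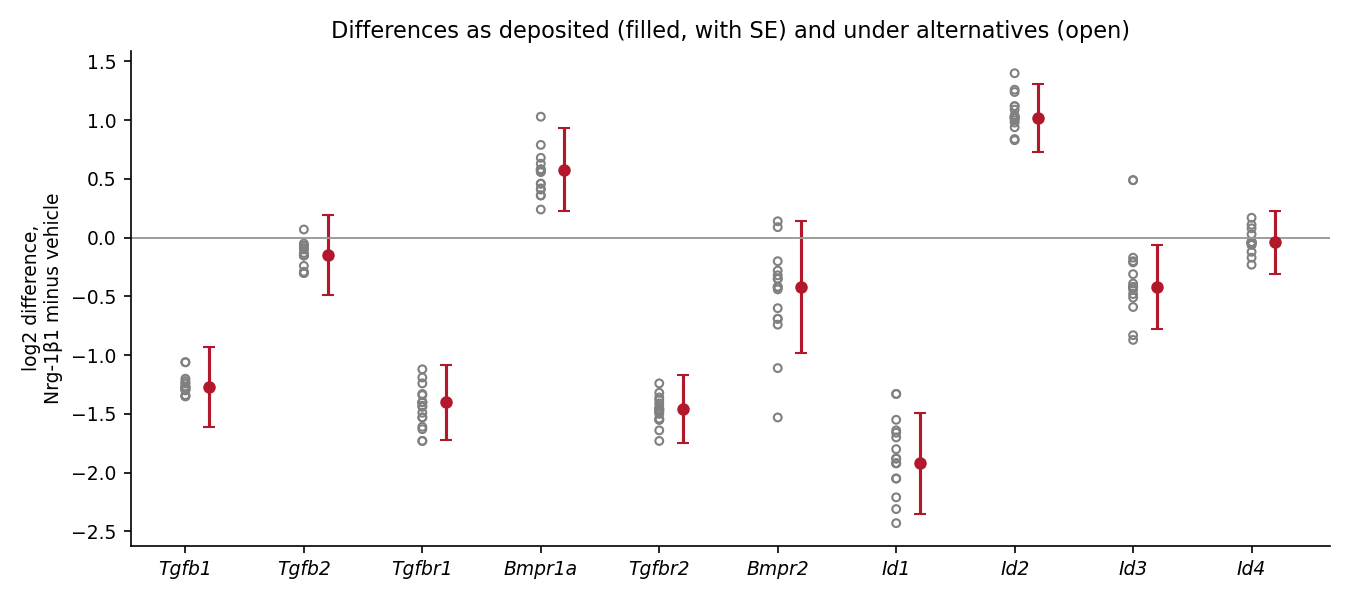
Log2 difference, Nrg-1β1 minus vehicle (y axis), of each member (x axis) as deposited (filled, bars are the SE) and under each of 17 alternatives (open). Tgfb1, Tgfbr1, Tgfbr2 and Id1 stay under zero and Id2 and Bmpr1a above it, while Bmpr2, Id3, Tgfb2 and Id4 cross it.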

How the data were processed

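RNA-seq libraries of 6 mice were compared, 3 per group. Per the submitters' processing notes, Trimmomatic and Bowtie2 were used. Not given in the sources used here are their versions, the build, the counter, the strand, how values were normalized and any filter. The deposited values are log2, and the table has 27102 genes, of which 6779 are blank. After unlogging and subtracting 4, 100.0% of values were whole multiples of a step per library within 0.02 of a read. They were therefore read as log2(normalized count + 4), a reading from the values. The largest step, that of Nrg-1β1 library 1, was 5.17 normalized counts per read. Counting intervals are 95%, exact Poisson, and like the floor of 3 reads cover counting error only, since reads carry no molecular identifiers.

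The groups were compared with limma 3.58.1 (R 4.3.3, intensity trend, group as the only term) over 20323 genes, with Benjamini-Hochberg adjustment at 0.05. The members and lists were chosen with earlier results of these data known. All members were named, every other pathway gene past the threshold, the 2 most abundant of the rest per role, and up to 4 called markers per list described. Further alternatives were other offsets, scalings, filters, left-out libraries, a depth term and limma-voom on the recovered reads. Exon lengths and overlapping genes came from GENCODE vM21 and promoter windows from RefSeq, both on GRCm38, with no coordinates of the files themselves.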

Additional observations from a re-analysis of the deposited data

How the results depend on the processing

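Calls depended strongly on the setting, while the differences of Tgfb1, Tgfbr1, Tgfbr2, Id1, Id2 and Bmpr1a kept their sign in all 17 alternatives. For all of these but Bmpr1a the groups did not overlap, so leaving out a library could not change the sign. The replicate block, the low-value filter and dropping the intensity trend leave the difference itself unchanged. The kept sign is therefore no separate support. As deposited, 127 genes were lower and 89 higher over all genes, 5 and 0 among other pathway genes, and 3 members passed. With the replicate block these were 342 and 285, 9 and 1, and 3, but the samples share only a number: deviations of same-numbered libraries correlated at -0.27, -0.07 and -0.30, and 0 of 6 libraries correlated best with their own number. Median centring gave 335 higher over all genes and 1 higher other pathway gene. Quantile normalization gave 53 lower and 12 higher, 3 lower pathway genes and 1 member, an offset of 1 gave 80 and 49, 3 and 1, and the low-value filter of a mean normalized count of 50 gave 38 and 11, 3 and 1. Without the intensity trend 19 genes were lower and 2 higher, and with limma-voom 3 and 19, with 0 pathway genes and 0 members in both. With read depth class as a term, without the deep libraries, and with vehicle library 3 alone, an alternative chosen after seeing the data, limma gave 0 in every count, while 1729, 1589 and 2059 genes had an unadjusted p under 0.05. Leaving out 1 library gave 0 to 41 lower and 0 to 15 higher genes, 0 to 2 lower pathway genes and 0 to 1 members. Id3 reversed to 0.49 with the depth class and without the deep libraries, where the vehicle side rests on library 2 alone, assumed to vary like the other group. The cause of these changes was not tested. Depth limits Id1, Tgfb1 and Bmpr2 most, with 3 to 15 reads per Nrg-1β1 library.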
